A study of Mus musculus with 6 samples.

Results

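Rab GTPases are the largest branch of the Ras superfamily of small GTPases, and the members described here are 59 genes of 19935 measured by name in primary mouse keratinocytes. A gene was taken as a member where a row of the array was annotated with exactly 1 symbol made of Rab, a number and at most a letter and a digit, so that partner genes such as Rab11fip1 or Rab3gap1 were not members. No measured value entered that choice, but the family was proposed, for the contrast of caNFATc1 with vector control, with results of that contrast known. Its differences and calls are therefore given as a description, and nothing is inferred from how many members were called.

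The cells were keratinocytes of wild type CD1 mice, kept in low-calcium medium, which holds keratinocytes in a basal-like state, and every culture received a retrovirus. That of 3 cultures carried caNFATc1, a recombinant human NFATc1 with mutations in its autoinhibitory domain that make it constitutively active, and that of the 3 vector control cultures was the empty MSCV virus. The sources used here give neither the age of the mice, nor the share of infected cells, nor the time from infection to harvest. Total RNA of each culture was measured on 1 single-colour array, and arrays of the 2 groups with the same replicate number are called a pair. The deposited values are log2 values relative to the median of each row over the 6 arrays, so they show differences between arrays but no level, and with 6 arrays their precision is limited. In a bulk culture fewer cells of a type and less RNA per cell cannot be told apart.

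Each Rab protein cycles between a GDP-bound form, held in the cytosol by a GDP dissociation inhibitor (GDI), and a GTP-bound form that sits on one kind of membrane through prenyl groups at its C-terminus. Exchange factors (GEFs) load GTP, GTPase-activating proteins (GAPs) end the signal, and effectors such as tethers and motor adaptors bind the GTP-bound form. In keratinocytes this machinery carries integrins, junction proteins and growth factor receptors through endosomes, and in the epidermis it also serves the uptake of pigment granules from melanocytes. The genes were grouped by the membrane for which each Rab is best known, as endosomal (12 genes), recycling (10), secretory (12), Golgi (14) and other (11).

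Differences below are log2 values of caNFATc1 minus those of vector control with the standard error from limma (SE, 3 arrays per group), and a gene is called where the Benjamini-Hochberg adjusted p over all 19935 genes was under 0.05. In the fit with group as the only term Rab43 alone of the 59 was called, against 0.216% of all genes. With the replicate number as a block 14 were called, against 6.11% of all genes, 11 of them higher and 3 lower, against 3.73% and 2.38%. Both fits give the same differences and differ in the SE. The labels state no block, so the fit without it was the main one planned, and the block was the alternative. "Rose" and "fell" refer to the fit with the block, whose SE and adjusted p are printed, and 13 of the 14 calls were made only there. Without the block their adjusted p lay between 0.0788 for Rab22a and 0.355 for Rab30. The groups did not overlap for 19 of the 59 genes, 14 with all caNFATc1 arrays above and 5 with all below, against 9.64% and 9.09% of all genes. The median difference of the 59 genes was 0.06, with medians of 0.05, 0.06 and 0.10 in pairs 1, 2 and 3, beside -0.01 over all genes. Of the 59, 41 had a positive difference, beside 9452 of all 19935 genes, and for 28 the difference was under 0.1 in size.

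**Figure D1:**
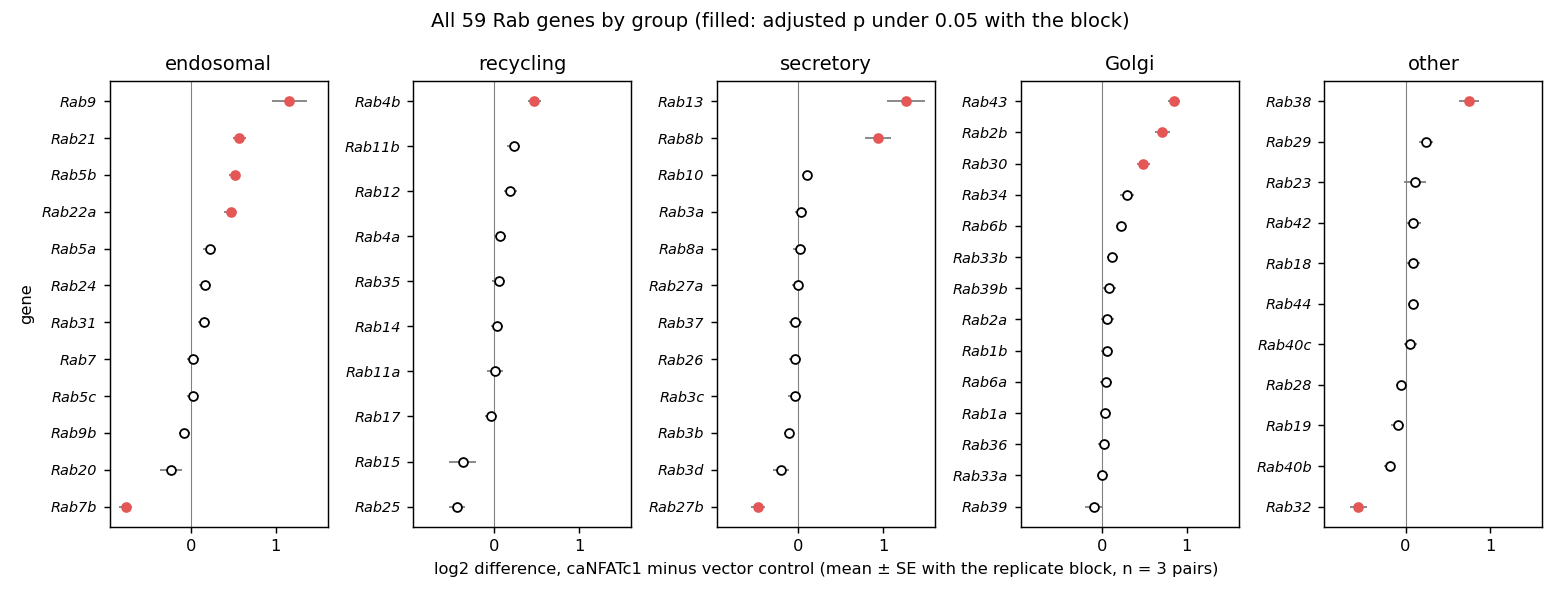
Difference of each of the 59 Rab genes (horizontal axis, log2, caNFATc1 minus vector control), in 5 panels by membrane group, with the SE of the fit with the replicate block (n = 3 pairs). Filled points are the 14 genes called with the block, from Rab13 at 1.27 to Rab7b at -0.76, and open points are the 45 genes called in neither fit, which lay between -0.44 and 0.30.

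The 4 genes with the largest positive difference were Rab13, Rab9, Rab8b and Rab43, and their promoter sequences are shown as examples chosen by that size. Each window runs from 250 bases before to 50 bases after the 5′ end of the gene, from RefSeq on GRCm38.p6, 5′ to 3′ on the gene's strand. Capitals mark the NFAT core motif GGAAA on either strand (TTTCC where it lies on the other strand).
Rab13, chr3:90213465-90213764, strand +: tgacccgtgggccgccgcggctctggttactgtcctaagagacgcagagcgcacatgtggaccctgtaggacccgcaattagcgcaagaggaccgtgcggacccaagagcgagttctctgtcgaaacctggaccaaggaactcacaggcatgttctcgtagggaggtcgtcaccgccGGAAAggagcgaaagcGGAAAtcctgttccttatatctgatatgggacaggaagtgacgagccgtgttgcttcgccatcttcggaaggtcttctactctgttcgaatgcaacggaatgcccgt
Rab9, chrX:166479818-166480117, strand -: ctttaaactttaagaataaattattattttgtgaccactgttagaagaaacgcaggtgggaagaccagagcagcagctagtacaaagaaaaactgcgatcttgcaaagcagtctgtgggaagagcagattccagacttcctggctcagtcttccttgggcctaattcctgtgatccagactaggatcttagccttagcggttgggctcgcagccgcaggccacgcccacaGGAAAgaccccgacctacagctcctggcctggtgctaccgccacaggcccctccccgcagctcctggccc
Rab8b, chr9:66919656-66919955, strand -: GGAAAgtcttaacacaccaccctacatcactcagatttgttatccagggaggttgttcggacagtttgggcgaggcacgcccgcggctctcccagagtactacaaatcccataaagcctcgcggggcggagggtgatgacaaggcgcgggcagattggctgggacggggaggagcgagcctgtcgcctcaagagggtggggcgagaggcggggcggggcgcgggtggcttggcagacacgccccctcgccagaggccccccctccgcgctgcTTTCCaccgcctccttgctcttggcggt
Rab43, chr6:87812115-87812414, strand -: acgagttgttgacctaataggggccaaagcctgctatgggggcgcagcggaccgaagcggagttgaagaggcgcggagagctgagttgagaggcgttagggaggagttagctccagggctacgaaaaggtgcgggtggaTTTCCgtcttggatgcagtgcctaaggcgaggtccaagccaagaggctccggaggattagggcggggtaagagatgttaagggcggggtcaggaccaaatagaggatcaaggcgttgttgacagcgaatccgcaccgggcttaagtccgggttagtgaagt
The Rab13 window held 2 such matches, that of Rab8b 2, and those of Rab9 and Rab43 held 1 each. Other annotated starts of the same genes have windows with other counts: a second start of Rab13 held 6, and 3 further starts of Rab43 held 1, 0 and 1. The motif is short and common: GGAAA on either strand was in 61.3% of all 32851 promoter windows of this length, and in 42 of the 60 windows of Rab genes (70%). These 60 windows belong to the 48 of the 59 Rab genes that the table lists. The longer TGGAAA, whose matches also hold GGAAA, was in 21.4% of all windows and in 12 of the 60. The AP-1 motif TGANTCA, which NFAT proteins often pair with at composite sites, was in 7.81% of all windows and in 3 of the 60, those of a start of Rab15, a start of Rab34 and the start of Rab39b. These matches describe the letters of the windows and say nothing of binding.

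The secretory group carries vesicles towards the plasma membrane, and 3 of its 12 genes were called. Of these 2 rose and 1 fell, against 3.73% and 2.38% of all genes. Rab13, which delivers tight junction proteins to the cell surface, read -0.42, -0.31 and -0.25 in vector control replicates 1, 2 and 3 and 1.32, 0.25 and 1.27 in caNFATc1 replicates 1, 2 and 3. All caNFATc1 arrays lay above all controls, and replicate 2 was far closer to the controls than replicates 1 and 3. Rab13 rose 2.42-fold, by 1.27 ± 0.22 (limma adjusted p = 0.0352 with the block).

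Rab8b, which acts with Rab8a in exocytosis and in the growth of cell protrusions, read -0.35, -0.25 and -0.24 in the controls and 0.72, 0.24 and 1.03 in caNFATc1 cells. The groups again stood apart, with replicate 2 lowest among the caNFATc1 arrays. It rose 1.93-fold, by 0.95 ± 0.15 (adjusted p = 0.0296 with the block). Without pair 1 the differences of Rab13 and Rab8b were 1.04 and 0.88, and both calls were lost (limma adjusted p = 0.0868 and 0.0852 with the block). Without pair 2, the smallest for both genes, the adjusted p of that fit was 0.00297 and 0.00607.

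Rab27b, which docks secretory granules and exosomes at the plasma membrane, read 0.56, 0.23 and 0.09 in the controls and -0.09, -0.20 and -0.23 in caNFATc1 cells. All caNFATc1 arrays lay below all controls. It fell by 0.47 ± 0.08 (adjusted p = 0.0383 with the block), a call lost without pair 1 (0.0701) or pair 2 (0.101). Its close relative Rab27a, which also carries melanosomes, differed by -0.01 ± 0.07. Rab8a, Rab10, which serves exocytosis and basement membrane secretion, and the Rab3 genes of regulated exocytosis differed by between -0.20 (Rab3d) and 0.10 (Rab10) and were called in neither fit. Rab26 and Rab37, of secretory granules, differed by -0.04 and -0.03.

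**Figure D2:**
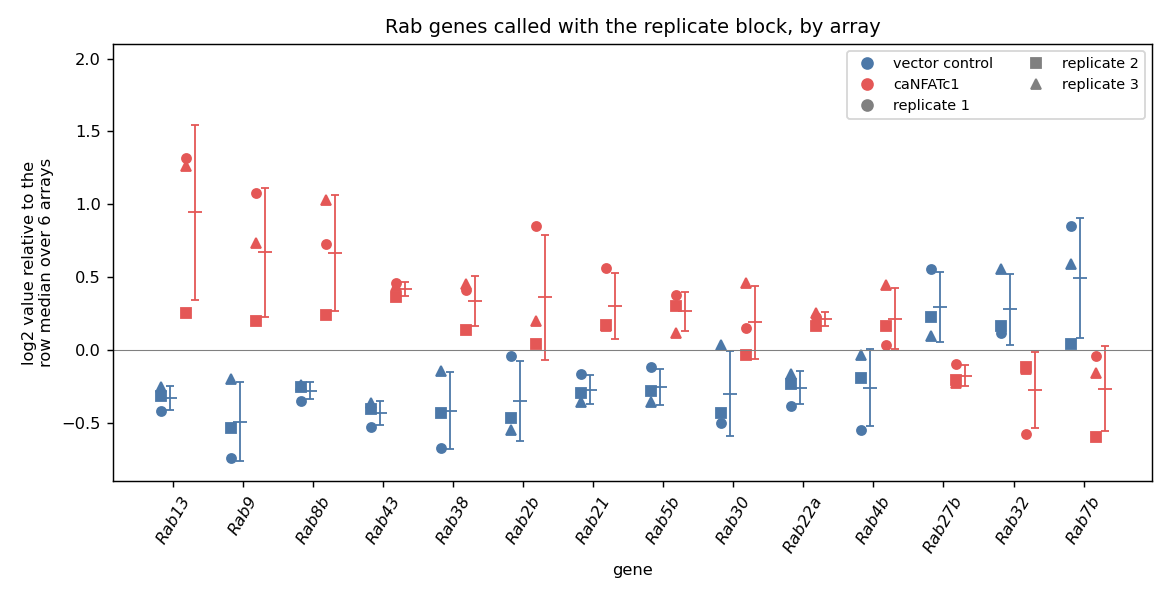
Values of the 14 Rab genes called with the replicate block on each of the 6 arrays (vertical axis, log2 relative to the row median), with the mean ± SD of each group beside the points. Arrays of the groups stand apart for 13 of the 14 genes and overlap for Rab30, and caNFATc1 replicate 2 (red squares) is close to the controls for Rab13, Rab9 and Rab8b.

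Of the 12 genes of the endosomal group 4 rose and 1 fell, against 3.73% and 2.38% of all genes. Rab9, which returns mannose 6-phosphate receptors from late endosomes to the Golgi, read -0.74, -0.53 and -0.20 in the controls and 1.08, 0.20 and 0.73 in caNFATc1 cells. The groups stood apart, although the highest control and the lowest caNFATc1 array lay at equal distances from the row median, as the centring of the values makes the middle arrays of a row do. Rab9 rose 2.24-fold, by 1.16 ± 0.21 (adjusted p = 0.0372 with the block), with differences of 1.82, 0.73 and 0.93 in the pairs.

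The other endosomal genes that rose work at the early endosome. Rab21, which binds integrin alpha subunits and drives their uptake, read -0.17, -0.29 and -0.36 in the controls against 0.56, 0.17 and 0.17 in caNFATc1 cells. It rose by 0.57 ± 0.08 (adjusted p = 0.0203 with the block). Rab5b, one of the 3 Rab5 forms that drive early endosome fusion, read -0.12, -0.28 and -0.36 against 0.38, 0.30 and 0.12, and rose by 0.52 ± 0.07 (adjusted p = 0.0169 with the block). It was measured by 2 rows of the array, which differed by 0.49 and 0.54. Rab22a, which sorts cargo from early endosomes into recycling tubules, read -0.38, -0.23 and -0.16 against 0.23, 0.16 and 0.25. The groups stood apart for all of these genes. Rab22a rose by 0.47 ± 0.07 (adjusted p = 0.0283 with the block), and its call was lost without pair 1 (0.0551) or pair 2 (0.0657), as was that of Rab5b without pair 2 (0.0625).

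Rab7b, which moves cargo from late endosomes to the trans-Golgi network, had the largest fall of the family. It read 0.85, 0.04 and 0.59 in the controls and -0.04, -0.60 and -0.16 in caNFATc1 cells. In both groups replicate 2 was the lowest array, and the differences of the pairs (-0.90, -0.64 and -0.75) were closer to each other than the arrays of a group were. Rab7b fell by 0.76 ± 0.08 (limma adjusted p = 0.00983 with the block and 0.276 in the other fit). Rab7, the main Rab of late endosomes and lysosomes, differed by 0.03 ± 0.07. Rab5a differed by 0.23 ± 0.08 with groups that stood apart but was called in neither fit (adjusted p = 0.158 with the block), and Rab24, linked to autophagosomes, by 0.17 ± 0.07. Rab31, Rab5c, Rab9b and Rab20 differed by 0.16, 0.02, -0.07 and -0.23.

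The Golgi group covers traffic from the endoplasmic reticulum through the Golgi stack. It had 13 of 14 positive differences, beside 9452 of all 19935 genes. Of the 14 genes 3 rose and 0 fell, against 3.73% and 2.38% of all genes. The group median was 0.08. Rab43, which acts in traffic at the Golgi, was the only Rab gene called with and without the block. It read -0.53, -0.40 and -0.37 in the controls and 0.46, 0.37 and 0.44 in caNFATc1 cells. The spread within each group was small beside the gap between them. Rab43 rose 1.81-fold, by 0.85 ± 0.07 (adjusted p = 0.00652 with the block, and 0.0219 with an SE of 0.07 without). The call without the block depended on single arrays: leaving out each of the 6 in turn, it was called in 1 setting, with adjusted p between 0.0422 and 0.129 and a difference of at least 0.80.

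Rab2b, a relative of Rab2a in traffic between the endoplasmic reticulum and Golgi, read -0.04, -0.46 and -0.55 in the controls and 0.85, 0.04 and 0.20 in caNFATc1 cells. Replicate 1 was the highest array of each group. Rab2b rose by 0.71 ± 0.09 (limma adjusted p = 0.0173 with the block and 0.305 in the other fit). Rab30, a Golgi Rab needed for the structure of the stack, read -0.50, -0.43 and 0.03 against 0.15, -0.03 and 0.46, and here the groups overlapped, with vector control replicate 3 above caNFATc1 replicate 2. It rose by 0.49 ± 0.08 (adjusted p = 0.0296 with the block), a call lost without pair 1 (0.0542) or pair 2 (0.0617). The core Golgi genes Rab1a, Rab1b, Rab2a and Rab6a, which run transport to and within the Golgi, differed by 0.04, 0.06, 0.06 and 0.05. Rab34, which positions lysosomes, differed by 0.30 ± 0.08 and Rab6b by 0.23 ± 0.06 (adjusted p = 0.105 and 0.0999 with the block). Rab33a, Rab33b, Rab36, Rab39 and Rab39b lay between -0.09 and 0.12.

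The recycling group returns receptors to the surface. Of its 10 genes 1 rose and 0 fell, against 3.73% and 2.38% of all genes. Rab4b, of fast recycling from early endosomes, read -0.55, -0.19 and -0.04 in the controls and 0.04, 0.16 and 0.45 in caNFATc1 cells. The groups stood apart by a narrow margin, and replicate 1 was the lowest and replicate 3 the highest array in both. Rab4b rose by 0.47 ± 0.07 (adjusted p = 0.0280 with the block), a call lost without any single pair (adjusted p between 0.0511 and 0.0606). Rab25, the epithelial member of the Rab11 family, read -0.01, 0.21 and 0.04 in the controls and -0.57, 0.01 and -0.50 in caNFATc1 cells. Replicates 1 and 3 carried the difference of -0.44 ± 0.09, which was not called (adjusted p = 0.0549 with the block). Rab15, a Rab of early and recycling endosomes, differed by -0.37 ± 0.16 (adjusted p = 0.257 with the block). Without pair 2 the fit with the block called both Rab25 and Rab15 as lower (adjusted p = 0.0440 and 0.0326). Rab11a and Rab11b, the main Rabs of the recycling endosome, differed by 0.01 and 0.23, and Rab4a, Rab12, Rab14, Rab17 and Rab35 by between -0.04 (Rab17) and 0.19 (Rab12), with none of the 7 called.

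Against 3.73% and 2.38% of all genes, Rab38 rose and Rab32 fell among the 11 other Rab genes. Both proteins serve lysosome-related organelles and are best known for delivering enzymes to melanosomes. Rab38 read -0.67, -0.44 and -0.14 in the controls and 0.42, 0.14 and 0.45 in caNFATc1 cells, while Rab32 read 0.12, 0.16 and 0.56 in the controls and -0.58, -0.12 and -0.13 in caNFATc1 cells. The groups stood apart for both genes, in opposite directions. Rab38 rose 1.68-fold, by 0.75 ± 0.12 (adjusted p = 0.0280 with the block), and Rab32 fell by 0.56 ± 0.10 (0.0396 with the block, and 0.101 and 0.0778 without pair 1 or pair 3). Of 11 melanocyte markers measured, 0 were called in either limma fit (0 and 1 at an unadjusted p under 0.05). The pigment genes Tyr, Tyrp1, Dct, Pmel and Mlana differed by between -0.13 and 0.05, while Gpnmb, a glycoprotein of melanosomes and lysosomes that other cells also make, differed by 0.88 ± 0.30 (adjusted p = 0.160 with the block). The remaining 9 genes were called in neither fit: Rab29, of the trans-Golgi and lysosomes, differed by 0.25, the SOCS-box gene Rab40b by -0.19, the Hedgehog regulator Rab23 by 0.11, the lipid droplet Rab18 by 0.09, and Rab19, Rab28, Rab40c, Rab42 and Rab44 by between -0.09 and 0.09.

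Close relatives within the family were set side by side in 18 comparisons. The difference of Rab9 exceeded that of Rab9b by 1.23 ± 0.61 (SD over 3 pairs), that of Rab8b exceeded that of Rab8a by 0.93 ± 0.40, and that of Rab2b exceeded that of Rab2a by 0.65 ± 0.06. In each of these comparisons the second-named gene lay close to 0. Among the early endosome genes, Rab5b lay above Rab5c by 0.49 ± 0.06 and above Rab5a by 0.29 ± 0.15, and Rab4b lay above Rab4a by 0.41 ± 0.05. Rab7 lay above Rab7b by 0.79 ± 0.10 and Rab27a above Rab27b by 0.46 ± 0.22. The widest gap was that of Rab38 over Rab32, 1.31 ± 0.46. The gap had the same sign in all 3 pairs in 15 of the 18 comparisons, among them all of those above. The signs were mixed for Rab11b over Rab11a (0.22 ± 0.32), Rab3a over Rab3d (0.24 ± 0.33) and Rab1a over Rab1b (-0.02 ± 0.05). These gaps were read from the same contrast and have no test, and how far probes of one relative see the transcript of another was not tested.

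**Figure D3:**
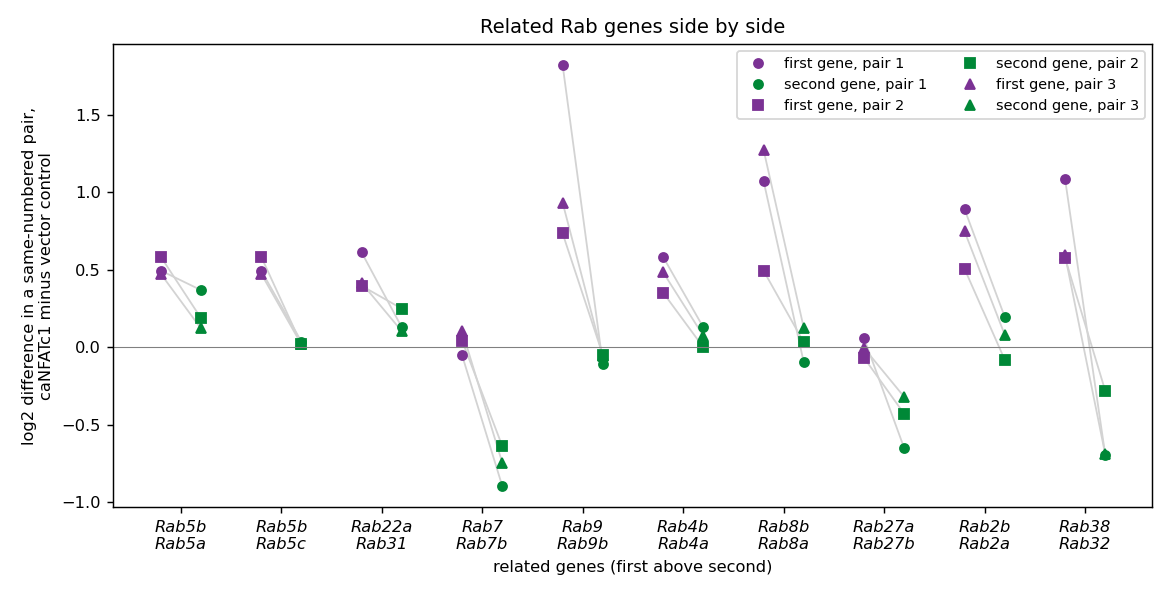
Differences of related Rab genes in each same-numbered pair (vertical axis, log2, caNFATc1 minus vector control), with the first-named gene in purple, the second in green and a line joining values of the same pair. Rab9, Rab8b, Rab2b, Rab4b and Rab5b lie above their relatives in all 3 pairs, and Rab38 and Rab32 lie on opposite sides of 0.

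The size of the differences varied between pairs in a shared way. Among the 14 Rab genes called with the block the smallest difference was in pair 2 for 12 and in pair 3 for 2, and the largest was in pair 1 for 12. Among all 1219 genes called with the block pair 2 held the smallest difference for 44.1% and pair 1 the largest for 45.9%. The known NFAT target Rcan1 also differed least in pair 2 (3.12, against 3.61 in pair 1 and 3.40 in pair 3). Of 9 fibroblast markers measured, 7 had positive differences, beside 9452 of all 19935 genes, while Thy1 and Lum differed by -0.14 and -0.01. The median difference of the 9 markers was 0.03, 0.06 and 0.50 in pairs 1, 2 and 3. Col3a1 rose by 1.20 ± 0.19 (adjusted p = 0.0296 with the block), and Pdgfra, which was not called, differed by 0.83 ± 0.20. Of 11 keratinocyte markers 1 rose, the transcription factor gene Trp63 (0.42 ± 0.08, adjusted p = 0.0444 with the block), while Krt5 and Krt14 differed by 0.03 and -0.02. Of 7 immune and 5 endothelial markers 0 were called in either limma fit, with 0 at an unadjusted p under 0.05. The part of other cell types in the Rab values was not tested.

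Apart from the contrast, several Rab genes differed between the replicate cultures in both groups. Replicate 1 stood apart from replicates 2 and 3 in sex-linked genes, while its median difference from them over all genes was 0.01. Xist read -6.00 and -6.05 in its vector control and caNFATc1 arrays and between -0.04 and 0.18 in the other 4. The Y-linked genes went the other way: Eif2s3y read 3.00 and 3.77 in replicate 1 and between -0.08 and 0.01 in the other 4 arrays. Kdm5d and Uty were also high in replicate 1. The sex of the cells was not tested. Of the cell type markers, Vim read -2.98 and -2.92 in replicate 1 and between -0.03 and 0.79 in the other 4 arrays. Dsp read -2.78 and -2.58 in replicate 3 and between -0.11 and 0.99 in the other 4. Rab6b, a Golgi Rab best known from neurons, read 0.86 and 1.10 in replicate 1 and between -0.29 and 0.09 in the other 4 arrays. Its value in replicate 1 exceeded the mean of replicates 2 and 3 by 1.09 in the controls and by 1.10 in caNFATc1 cells. Rab15 read 1.08 and 0.50 in replicate 1 and between -0.42 and 0.24 elsewhere. In the opposite direction Rab29 was lower in replicate 1 than in the mean of the other replicates by 0.44 in each group, and Rab1b by 0.39 in controls and 0.50 in caNFATc1 cells. The range over the 3 replicate numbers exceeded 0.5 for 8 of the 59 Rab genes (13.6%), beside 11.2% of all genes, and it exceeded the size of the group difference for 35 (59.3%), beside 70.9% of all genes.

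**Figure D4:**
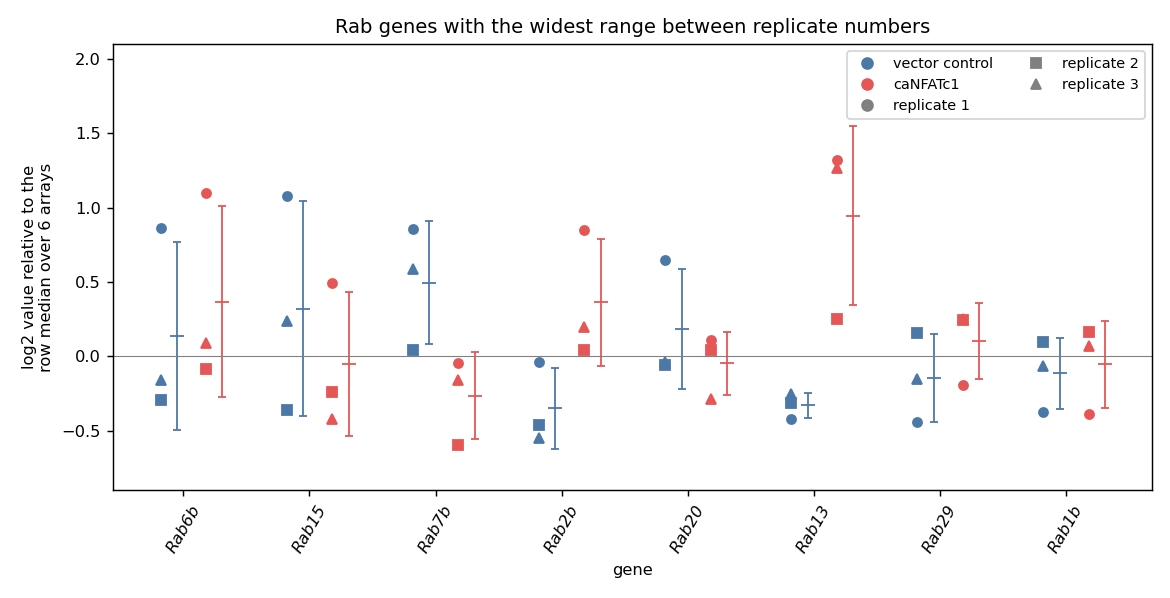
Values on each array (vertical axis, log2 relative to the row median) of the 8 Rab genes whose range over the 3 replicate numbers exceeded 0.5, with the mean ± SD of each group beside the points. For Rab6b and Rab15 replicate 1 (circles) lies above replicates 2 and 3 in both groups, and for Rab29 and Rab1b it lies below them.

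The proteins that act on Rabs were read from lists of GDI and prenylation genes, GEFs, GAPs and effectors, of which 136 genes were measured. Without the block 1 was called, against 0.216% of all genes. With it 12 were higher and 2 lower, against 3.73% and 2.38%. Their median difference was 0.07. Eea1, the tether that Rab5 recruits to early endosomes, read -0.29, -0.29 and -0.42 in the controls and 0.36, 0.35 and 0.29 in caNFATc1 cells. The arrays of each group lay close together and the groups far apart. Eea1 rose by 0.66 ± 0.06 (adjusted p = 0.00904 with the block) and was the one called without the block too (0.0328).

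Against 3.73% and 2.38% of all genes, 6 of 53 effectors rose and 0 fell. Besides Eea1 these were Plekhm1, a Rab7 effector that helps vesicles fuse with lysosomes (0.67 ± 0.06, adjusted p = 0.00859 with the block), Rilpl2 (0.92 ± 0.16, 0.0370), the exocyst subunit genes Exoc6 (0.71 ± 0.14, 0.0488) and Exoc6b (0.53 ± 0.10, 0.0418), and Rab11fip3, which binds Rab11 (0.42 ± 0.08, 0.0485). Rilpl2 and both exocyst genes differed least in pair 2, whereas Rab11fip3 and Plekhm1 differed most there. For Rab11fip3 the groups overlapped, and its limma adjusted p without the block was 0.34. Myo5b, a myosin that pulls Rab11 vesicles, differed by 0.51 ± 0.11 and was not called (0.0553).

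Of 35 GAPs 4 rose and 0 fell, against 3.73% and 2.38% of all genes, and the group median was 0.11. Tbc1d12 rose by 0.75 ± 0.08 (adjusted p = 0.0101 with the block), Rabgap1l by 0.62 ± 0.11 (0.0383), Tbc1d8 by 0.46 ± 0.07 (0.0296) and Sgsm2, which acts on Rab32 and Rab38, by 0.39 ± 0.06 (0.0293). Of 35 GEFs 2 rose and 2 fell, against the same shares of all genes. The Rab5 exchange factor genes Rin2 and Rin3 moved in opposite directions, Rin2 falling by 0.65 ± 0.10 (adjusted p = 0.0271 with the block) and Rin3 rising by 0.36 ± 0.06 (0.0339). For Rin2 the groups overlapped, and its limma adjusted p without the block was 0.327. Dennd2a fell by 0.51 ± 0.09 (0.0390) and Rab3gap1, whose product with Rab3gap2 activates Rab18, rose by 0.52 ± 0.10 (0.0465). Of 13 genes for GDI, prenylation and membrane delivery, 11 had positive differences, beside 9452 of all 19935 genes, with a median of 0.18. None was called in either limma fit, with 4 at an unadjusted p under 0.05 without the block and 7 with it. Of all 19935 genes, 2534 and 4287 had such a p.

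**Figure D5:**
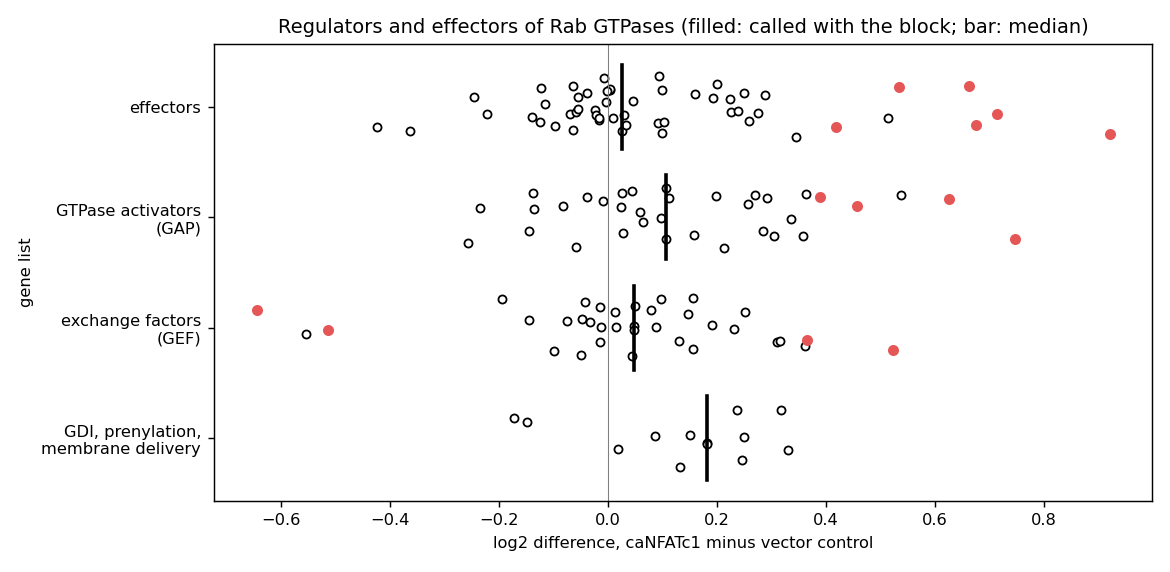
Differences of 136 regulators and effectors of Rab proteins (horizontal axis, log2, caNFATc1 minus vector control) in 4 lists, with points spread vertically within a list only to separate them and a bar at each median. Filled points are the 14 genes called with the replicate block, from Rin2 at -0.65 to Rilpl2 at 0.92.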

How the data were processed

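The deposited table held log2 values in 28815 rows for 6 arrays. The submitters' processing notes name RMA and build mm8, and the software is not given in the sources used here. Every row's median over the arrays was 0 within 5e-07, and base 2 was taken from RMA. Of the rows, 21780 carried 1 symbol in the platform annotation, and they gave 19935 genes by the mean of a gene's rows. The 62 Rab rows gave 59 genes, of which 3 had several rows. Groups and replicate numbers came from the sample titles.

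limma 3.58.1 (R 4.3.3; lmFit, eBayes, 2-sided) compared 3 with 3 arrays, without and with the replicate number as a block, and was tested on simulated data. The simulated data held no replicate effect, so they could not test the block under the pairing seen here. Over all genes deviations from the group means correlated at 0.71, 0.61 and 0.57 for the same numbers, each over the limit of 0.1. For other numbers the values lay between -0.60 and 0.18. Centring on group means forces some of the latter below 0 where the former are positive. Over the Rab genes alone the same numbers gave 0.67, 0.40 and 0.64. There caNFATc1 replicate 3 with vector control replicate 2 gave 0.42, above the 0.40 of pair 2. Equal numbers are not said to share a culture, so p-values cover only the spread among these 6 samples. Members and lists were chosen with earlier results of these data known. Named with values were the Rab genes called in either fit, the next by size up to 25, close relatives of called genes, and regulators called in either fit. Myo5b and the values of the remaining Rab genes were added after they were seen. Protein sequences were not used here. Other settings were another normalization, other row choices, a robust variance, and arrays or pairs left out.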

Additional observations from a re-analysis of the deposited data

How the results depend on the processing

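The calls depended on the pairing and on single arrays. The directions of the 14 called Rab genes held in all 15 other settings run, most of which could not have changed them. For the 13 whose groups stood apart, leaving out arrays or pairs could not have changed them. The block and the robust variance keep the differences as they are. Of the 14, other row choices could alter only Rab5b, whose rows differed by 0.49 and 0.54. For the 13, only quantile normalization could have changed a direction. With the replicate block 1219 genes were called against 43 without it, 14 Rab genes against 1, and 14 regulators and effectors against 1. Leaving out 1 array at a time, or a pair in the fit with the block, gave between 0 and 1086 genes, between 0 and 12 Rab genes, between 0 and 12 regulators and effectors, and a Rab median between 0.0316 and 0.0844 against 0.0566. In the setting with 0 genes, without vector control replicate 3, limma gave 2113 genes and 12 Rab genes an unadjusted p under 0.05. Without pair 1, 2 or 3 the fit with the block called 711, 743 and 1086 genes, 7, 11 and 12 Rab genes and 5, 12 and 8 regulators and effectors, and 6 Rab genes were called each time: Rab2b, Rab7b, Rab9, Rab21, Rab38 and Rab43. Without caNFATc1 replicate 2 the unblocked fit called 83 genes and 3 Rab genes, Rab8b, Rab13 and Rab43. Quantile normalization called 169 genes, 2 Rab genes (Rab22a and Rab43) and 3 regulators and effectors. Of the 25 Rab genes named by size or call, 3 that were not called changed sign: with 1 array left out, Rab15 lay between -0.7143 and 0.0061 and Rab20 between -0.35 and 0.001, both highest without vector control replicate 1, and Rab6b lay between -0.138, without caNFATc1 replicate 1, and 0.5909. The cause was not tested. Other choices of row and a robust variance gave 42 or 43 genes and 1 Rab gene. Array signals over background were not used here, so dim rows were not separated.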
